A study of Mus musculus with 4 samples.

Results

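Many genes have a second transcript annotated on the other DNA strand, named after the gene with the suffix os for opposite strand. To examine how these transcripts are made in thymocytes and whether they change without Tox4, TTchem-seq counts of the transcripts so named were set beside those of their sense partners. A row of the count table was taken where its name equalled another gene name of the table plus os and an optional digit, and where its summed count over the 4 libraries was at least 40. Of 172 rows with such a name, 50 met this limit and are described here as opposite-strand transcripts, out of 24984 genes in all. The remaining 122 rows were not, of which 50 had no fragment and 72 had 1 to 39. The transcripts were thus selected on their measured counts, and the presence of signal in these transcripts is a property of the rule and not a result. Just inside it were Acss2os and Smc2os with a summed count of 43 each, and just outside it Kif16bos with 34 and Kcnmb4os2 with 33.

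TTchem-seq marks RNA made during a brief pulse of 4-thiouridine (4sU), fragments it and enriches the marked pieces, so the signal over a gene, introns included, follows its transcription rather than the stored amount of RNA. The cells were double positive (DP) thymocytes, the stage at which developing T cells carry both CD4 and CD8. All 4 libraries came from young adult mice with loxP-flanked Tox4 alleles (Tox4;F/F in the labels), without Cre in the 2 wild-type (WT) libraries and with Lck-Cre (Tox4;F/F;Lck+) in the 2 conditional knockout (cKO) libraries. Per the study, Cre was driven by the proximal promoter of Lck, which acts in T lineage cells, and the labels name DP thymocytes without the way they were purified for these libraries. In bulk libraries a lower share of cells making a transcript cannot be told apart from less transcript per cell.

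The libraries held between 38429786 and 48690591 fragments, and levels are given as CPM, the fragments of a gene scaled to the library's total in the usual way. Genes with any fragment counted numbered 18539 and 17196 in WT and 15693 and 17304 in cKO, so nearly silent genes were not covered alike. Tox4, the deleted gene, was at 74.04 and 70.3 CPM in WT and at 59.3 and 57.2 CPM in cKO. Over the whole locus this was a log2 fold change of -0.31 with an SE of 0.0998 (adjusted p 0.0453 with DESeq2 and 0.146 with edgeR). The loxP sites flank only some exons, and the study reports efficient deletion from Western blots of Tox4. The count over the whole locus is therefore no measure of how complete the deletion was. DP markers summed to between 5034 and 5604 CPM, while B cell markers reached at most 17.7, myeloid markers 13.7, thymic epithelial and stromal markers 1.38 and erythroid markers 0.78 CPM. The 5 markers of mature single positive cells summed to between 428 and 491 CPM. WT replicate 1 stood apart in Xist, with 172 CPM against 2.36 CPM or less elsewhere. Xist is made from the inactive X chromosome of females, so this library differs from the other 3 in a sex-specific transcript although the study describes sex-matched mice. The part of this difference in the comparisons below was not tested. In fits that leave out WT replicate 2, WT replicate 1 is the only WT library, so genotype and the Xist difference cannot be told apart there. Among the 50 transcripts only Rbm3os is X-linked.

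Transcription on the second strand has several known sources. Most mammalian promoters are bidirectional: polymerase also leaves them in the other direction, and most of that RNA is cut short by early termination and removed by the nuclear RNA exosome, while some becomes a stable long noncoding RNA (lncRNA). Other transcripts start beyond the end of a gene and run towards it, or start inside it. TOX4 is a subunit of the PTW/PP1 phosphatase complex with PNUTS, WDR82 and PP1, which acts on RNA polymerase II near the end of transcription. WDR82 and PNUTS are known to restrict transcription outside genes. From TTchem-seq of DP cells the study reports extragenic transcripts changed in both directions in cKO, called with other thresholds than those used here. Among those bound by Tox4, it describes Tox4 as mainly favouring promoter upstream transcripts and restricting lncRNA and readthrough.

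The position of each pair was read from the deposited coordinates (GRCm38), which the rule did not use. All 50 transcripts lay on the chromosome of the partner and on its opposite strand. In 30 pairs both genes pointed away from each other (start to start), and in 25 of these the starts lay within 1 kb, at a median of 217 bp and a range of 3 to 954 bp. In 15 of the 25 a gap separated the starts, and in 10 the 5' ends overlapped. A further 11 pairs ran towards each other (end to end), 7 transcripts lay wholly inside the partner, and in 2 pairs the partner lay inside the transcript. Another 4 transcripts had the start of a different gene on the other strand within 1 kb: Rab26os (Traf7 at 313 bp), Rsf1os2 (Clns1a at 36 bp), Slc7a6os (Prmt7 at 121 bp) and Zfp85os (Zfp65 at 89 bp). Thus 29 of 50 shared a start region with some gene on the other strand, although 4 of those are named after another.

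The name promises a noncoding RNA, and RefSeq annotates 43 of the 50 as lncRNA. The 5 annotated as protein coding are Ccpg1os, Cebpzos, Myocos, Slc7a6os and Wdr83os. Fbxl12os and Speer4cos are annotated as transcribed pseudogenes. The label noncoding therefore does not hold for all 50, and opposite strand is used for the group. All 50 partners are protein coding.

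The DNA between the starts of a divergent pair is the region from which both transcripts leave, and it is printed for 6 pairs that the results below turn on. They are the 2 transcripts of highest level, the divergent one of at least 1 CPM with the largest change, the shortest printed gap with repeated motifs, a pair of very low ratio, and one beside the limit. Each line is GRCm38 reference sequence, 5' to 3' along the opposite-strand transcript, so that the start of the partner lies to the left and that of the transcript to the right, and no RefSeq exon covers it. Capitals mark 4 motifs searched on both strands: the CCAAT box (CCAAT or ATTGG), the GC box (GGGCGG or CCGCCC), the ETS core (CCGGAA or TTCCGG) and the TATA box (TATAAA or TTTATA). Matches that overlap run together.
Brip1os (chr11:86201216-86201359, plus strand, leaving out the bases next to Brip1 that an exon covers): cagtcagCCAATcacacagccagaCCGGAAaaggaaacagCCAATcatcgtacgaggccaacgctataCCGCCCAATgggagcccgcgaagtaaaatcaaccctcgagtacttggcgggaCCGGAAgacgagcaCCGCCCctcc
Ino80dos (chr1:63114268-63114470, plus strand): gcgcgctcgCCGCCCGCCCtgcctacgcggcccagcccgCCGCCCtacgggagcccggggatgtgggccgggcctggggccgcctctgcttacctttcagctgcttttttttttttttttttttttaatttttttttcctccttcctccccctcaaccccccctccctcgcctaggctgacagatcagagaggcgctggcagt
Wdr83os (chr8:85080747-85080962, plus strand): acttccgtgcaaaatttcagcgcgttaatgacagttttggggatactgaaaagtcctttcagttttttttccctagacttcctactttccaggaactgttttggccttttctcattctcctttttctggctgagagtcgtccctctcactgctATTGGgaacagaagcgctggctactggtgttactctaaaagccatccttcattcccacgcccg
Etaa1os (chr11:17953876-17953969, plus strand): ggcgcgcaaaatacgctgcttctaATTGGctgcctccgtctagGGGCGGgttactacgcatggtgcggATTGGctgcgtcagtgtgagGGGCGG
Map2k3os (chr11:60931868-60932053, minus strand): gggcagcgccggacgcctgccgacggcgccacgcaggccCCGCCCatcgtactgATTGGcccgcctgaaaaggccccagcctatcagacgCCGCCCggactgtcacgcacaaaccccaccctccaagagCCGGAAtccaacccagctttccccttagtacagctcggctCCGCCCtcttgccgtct
Smc2os (chr4:52438965-52439220, minus strand): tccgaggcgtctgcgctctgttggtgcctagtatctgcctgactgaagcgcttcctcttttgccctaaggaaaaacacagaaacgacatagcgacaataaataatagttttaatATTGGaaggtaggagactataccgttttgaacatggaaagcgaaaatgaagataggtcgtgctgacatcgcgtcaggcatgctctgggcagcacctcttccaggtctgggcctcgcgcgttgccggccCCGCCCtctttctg

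The stretch of Brip1os held 3 CCAAT boxes, 2 GC boxes and 2 ETS cores, and that of Etaa1os 2 CCAAT boxes and 2 GC boxes in 94 bases. Ino80dos had 3 GC boxes, 2 of them overlapping, and a long run of T. Wdr83os had a single CCAAT box and 45.8% GC, the lowest GC content of the 6. No stretch printed held the letters of the TATA box. RefSeq promoter windows, from 250 bases before to 50 after a start (GRCm38.p6), were matched for 42 of the 50 transcripts, 22 of them of the 25 divergent transcripts. In these 22 windows the median GC content was 66.5% and the median number of CpG dinucleotides 27, against 52.7% and 7 over the 27025 genes with a window. A GC box was in 14 of the 22 (63.6%, against 35.9% of all windows), a CCAAT box in 7 (31.8% against 37.9%), an ETS core in 5 (22.7% against 15.2%) and a TATA box in 1 (4.55% against 14.2%). The 20 windows of the other transcripts had a median GC content of 52.2% and 9.5 CpG. Where the starts of a pair lie close together its windows share bases, so these values are not independent of the partner's promoter. The 27025 windows were the first listed for each gene and not limited to transcribed genes, while those of the transcripts lay nearest the deposited start. Whether the differences hold against transcribed genes only was not tested.

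Levels spanned a wide range. Of each library's fragments, the opposite-strand transcripts held 0.0279% and 0.0294% in WT and 0.0331% and 0.0325% in cKO. Their median level was 1.65 CPM, against 39.2 CPM for the partners. Only 7 reached 10 CPM, and they held 76.0% of all fragments of the group. Another 23 lay between 1.18 and 7.53 CPM and 20 between 0.255 and 0.984 CPM.

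**Figure D1:**
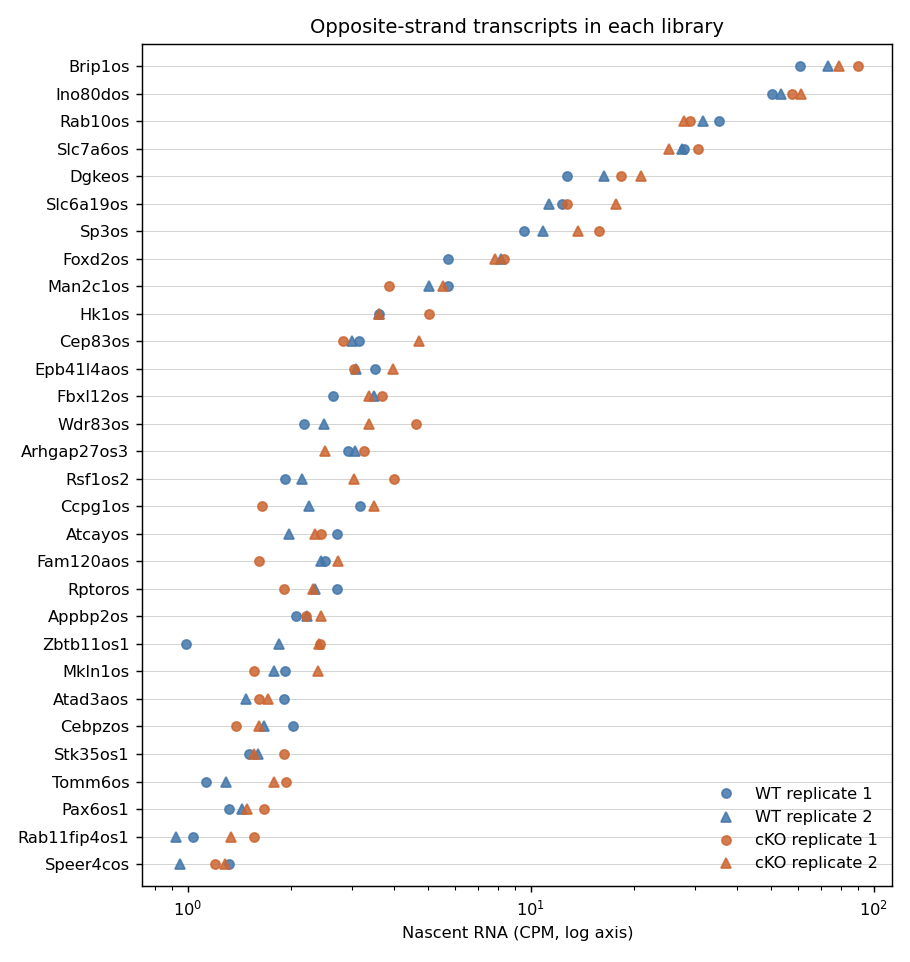
Level of the 30 opposite-strand transcripts with a mean of at least 1 CPM, in CPM on a log axis, with 1 point for each of the 2 WT and 2 cKO libraries. Brip1os and Ino80dos lie above 50 CPM in every library, and most transcripts lie below 5 CPM, where the 4 points of a transcript spread further on the log axis.

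Brip1os was the most transcribed, with 60.9 and 73.7 CPM in WT and 90.1 and 78.9 CPM in cKO, and alone held 24.7% of the fragments of the group. It is a lncRNA of 103084 bp on chromosome 11 that starts 167 bp from Brip1, the gene of a DNA helicase of the Fanconi anaemia pathway, and it runs on over Ints2 and Med13 on the other strand. Brip1 itself was at 59.5 and 60.4 CPM in WT and at 72.4 and 66.3 CPM in cKO, so that both strands gave about equal numbers of fragments. Ino80dos, a lncRNA of 43825 bp on chromosome 1 beside Ino80d, a subunit gene of the INO80 chromatin remodelling complex, was at 50.3 and 53.6 CPM in WT and 57.7 and 61.1 CPM in cKO. Ino80d was at 227 CPM in both WT libraries and at 237 and 240 CPM in cKO. The cKO libraries were above the WT libraries for both genes of both pairs.

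Levels of different genes were compared per length, as CPM per kb of the deposited gene length, introns included, called density here. The median density was 0.281 for the opposite-strand transcripts and 2.09 for the partners, beside 1.15 over the 13716 genes with a summed count of at least 40. The comparison with a partner was possible for the 44 pairs whose partner also had at least 40 fragments. In these the transcript's density had a median of 17.7% of that of the partner. On the log2 scale this median ratio of -2.50 was -1.84 for the transcripts with at least 200 fragments and -4.86 when CPM was not divided by length. It was below the partner in 39 pairs and above it in 5, and in 36 and 4 pairs, respectively, every library had that order. In 19 pairs it was under 10%, in 14 from 10 to 50% and in 6 from 50 to 100%. Since the limit on counts chose these transcripts, the ratios describe them and carry no test.

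**Figure D2:**
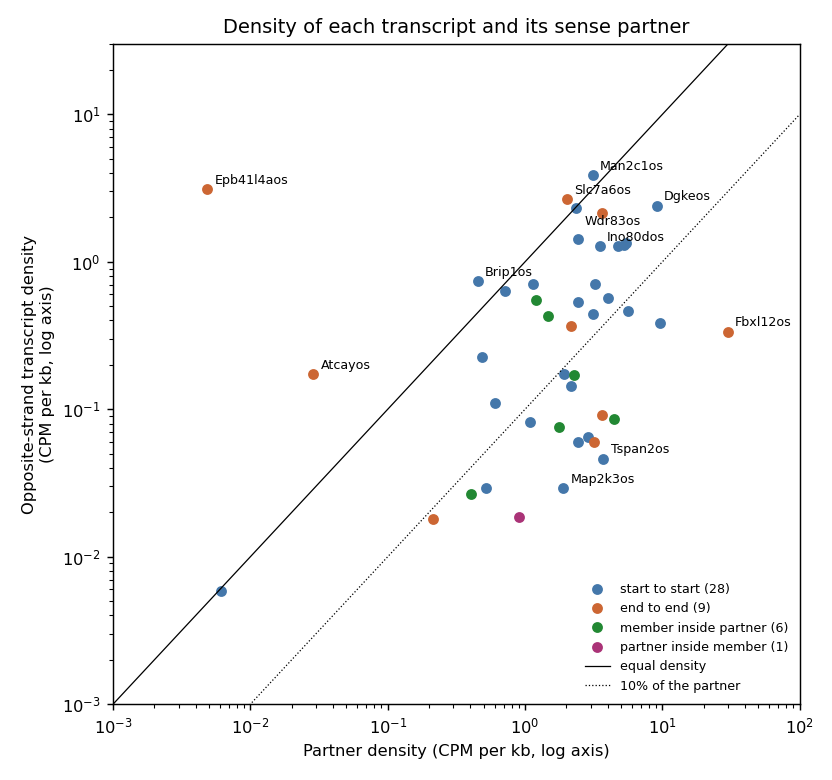
Density of each opposite-strand transcript (vertical) against that of its partner (horizontal), in CPM per kb over all 4 libraries, both on log axes, for the 44 pairs whose partner had at least 40 fragments. Points are coloured by arrangement, and 39 of 44 lie below the line of equal density.

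Among start to start pairs the median ratio was 22.0% (28 pairs, from 1.24% to 163%). End to end pairs had a median of 16.9% (9 pairs) and transcripts inside the partner one of 7.07% (6 pairs, at most 45.9%). The lowest ratios were those of Fbxl12os at 1.13%, Tspan2os at 1.24% and Map2k3os at 1.53%. Fbxl12os ended 20477 bp away from Fbxl12, an F-box protein gene transcribed at a density of 29.9. Tspan2os and Map2k3os started 647 and 187 bp from their partners, which encode a tetraspanin and a kinase upstream of p38.

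The 5 transcripts above their partner differed among themselves. Brip1os was at 163% of Brip1, with 142% and 169% in WT and 173% and 165% in cKO. Man2c1os, beside the gene of a cytosolic mannosidase, had the highest density of the group, 3.86, at 123% of Man2c1, but was below it in cKO replicate 1 at 89.3%. Slc7a6os, at 132% of the amino acid transporter gene Slc7a6, encodes a protein related to a yeast factor for nuclear import of RNA polymerase II, and lies 1723 bp past the end of its partner. Its start was 121 bp from that of Prmt7, an arginine methyltransferase gene with a density of 0.618. In the remaining pair of transcripts the partner was nearly silent: Epb41l4aos had a density of 3.09 and Epb41l4a one of 0.00484, and Atcayos had 0.173 and Atcay 0.0287. Atcayos began 1493 bp past the end of Dapk3 on the same strand, which had a density of 4.39; the part of that gene in the value was not tested. A second transcript so placed was Tomm6os, 870 bp past Usp49, with a density of 0.44 against 0.894 for Usp49.

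Of the partners, 6 had fewer than 40 fragments and were left out of the ratios. Myoc and Speer4c had none, and Pax6, Nkx2-2, Rab26 and Tmem150c had a mean of at most 0.122 CPM. Their genes act elsewhere, Pax6 and Nkx2-2 in the eye, brain and pancreas and Myoc in the eye. Pax6os1 was nevertheless at 1.31 and 1.44 CPM in WT and 1.67 and 1.48 CPM in cKO, spread over 134251 bp at a density of 0.011. Rab26os, with 494 bp the shortest of the group, had between 0.807 and 0.965 CPM, a density of 1.81. Traf7, which starts 313 bp away, had a density of 3.56.

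For comparison, 250 other lncRNA genes of the table started within 1 kb of a coding gene on the other strand, with both at 40 fragments or more. Their density had a median of 11.02% of that of the coding gene, with quartiles of 4.38% and 31.7%, and exceeded it in 9.2% of pairs. The 25 opposite-strand transcripts so placed had a median of 22.0%, inside those quartiles, and 2 of 25 exceeded the partner. Unlike the 250, the 25 are not all lncRNA, since Ccpg1os and Wdr83os are annotated as protein coding. The difference was not tested.

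**Figure D3:**
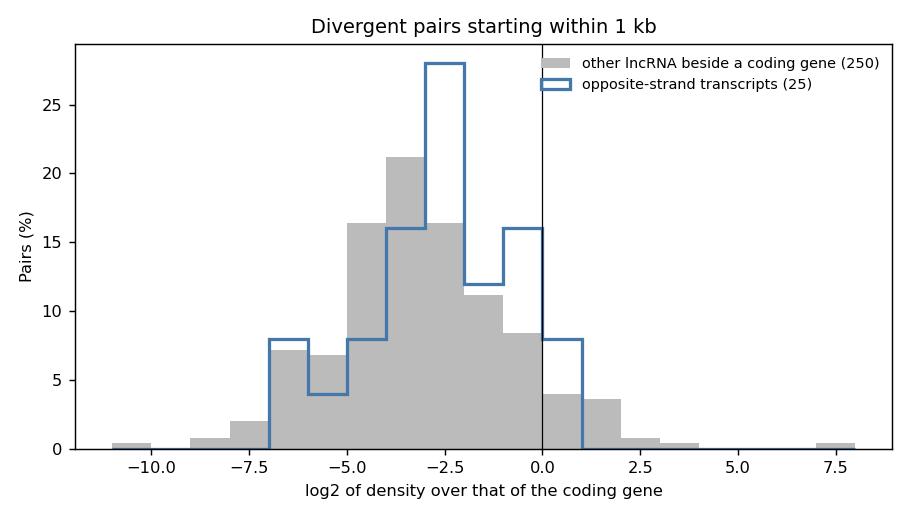
Share of pairs (%) by the log2 ratio of the density of the transcript to that of the coding gene starting within 1 kb on the other strand, in steps of 1, for 25 opposite-strand transcripts (line) and 250 other lncRNA genes (grey). Both lie mostly left of 0, where the transcript has the lower density, and the line lies within the range of the grey bars. The line includes the protein coding Ccpg1os and Wdr83os.

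In overlapping pairs a count depends on whether fragments were assigned by strand. Per the study the libraries were strand-specific, but the setting used for this count table is not stated. Of the 50 pairs, 31 overlapped. Over the whole table, 168 genes of at least 500 bp lay inside a gene of the other strand that had at least 50 CPM, and their median density was 0.208% of that of the host, with a 75th percentile of 9.10%. Of the 20 rows named os that lay inside such a partner, 16 fell below the limit of 40, with a median of 0.0298%, and 4 were above it, from 1.93% of the partner upwards, an order that the limit itself sets. For the overlapping pairs, fragments of one gene assigned to the other were not tested further.

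The comparison of cKO with WT asked whether these transcripts change when Tox4 is deleted. None of the 50 was called by the study's criteria (DESeq2 adjusted p under 0.05, at least 1.2-fold, mean of at least 1 CPM), where 4.06% of the 10624 genes tested were called, 2.34% increased and 1.71% decreased. With edgeR, which called 0.508% of genes, and with limma voom no transcript had an adjusted p under 0.05 either. Of the 30 transcripts with at least 1 CPM, 21 had a DESeq2 adjusted p and 9 were left without one by its filter on low counts. At an unadjusted p under 0.05 there were 5 of 30, which is 16.7%, against 13.5% of all genes at that level. All 5, and Myocos among the lower ones, were higher in cKO. Among all lncRNA genes with an adjusted p, 7.27% of 289 were called, 5.54% increased.

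Of the 30 transcripts, 11 (36.7%) had higher values in both cKO libraries than in either WT library, 3 had lower values in both, and 16 overlapped. Over all genes of that level the shares were 24.9% and 24.0%, and over the 402 lncRNA genes of that level 32.6% and 16.4%. The 50 transcripts had a median log2 fold change of 0.13, with 32 above 0, while the 13716 genes had a median of -0.00 with 49.4% above 0. The median of the 50 was 0.0607 without WT replicate 2 and 0.19 among those with at least 200 fragments. At 1 CPM or more, the 24 members annotated as lncRNA had a median of 0.19 and the 378 other lncRNA genes one of 0.08; 22 of the 30 members of any class and 60.2% of all lncRNA genes were above 0. The 25 divergent transcripts, not all of them lncRNA, had a median of 0.12, as did the 250 divergent lncRNA genes outside the group. None of these differences between sets of genes was tested.

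The 5 transcripts with at least 1 CPM and an unadjusted p under 0.05 were Brip1os, Sp3os, Dgkeos, Wdr83os and Rsf1os2. For Brip1os the log2 fold change was 0.32 (SE 0.118, 95% interval 0.09 to 0.56, DESeq2 adjusted p 0.103). This change depended on which WT library was kept, at 0.48 without WT replicate 2 and 0.19 without WT replicate 1. In the former fit the only WT library was the one high in Xist. Brip1 had a log2 fold change of 0.21 (SE 0.102), and the ratio of the pair changed by 0.12 (SE 0.114). Both strands of the locus thus had their cKO libraries above the WT libraries, and the ratio between them overlapped.

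Sp3os was at 9.55 and 10.9 CPM in WT and at 15.8 and 13.7 CPM in cKO. It starts 1014 bp inside Sp3, the gene of a transcription factor that binds GC boxes, and had a log2 fold change of 0.53 (adjusted p 0.106 with DESeq2, SE 0.193). Sp3 was at 206 and 197 CPM in WT and 221 and 214 CPM in cKO, a log2 fold change of 0.11 (SE 0.077). Here the groups did not overlap for either gene, and Sp3os was at 20.8% and 24.8% of the density of Sp3 in WT and at 32.0% and 28.7% in cKO.

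Dgkeos was at 12.7 and 16.4 CPM in WT and at 18.3 and 21.0 CPM in cKO. The start of this lncRNA lies 3 bp from that of Dgke, a diacylglycerol kinase gene, the closest pair of all. Its log2 fold change was 0.43 (SE 0.183, DESeq2 adjusted p 0.208), and that of Dgke, between 212 and 243 CPM with overlapping groups, was 0.05 (SE 0.0897). With WT replicate 1 left out the change of Dgkeos was 0.25, and with WT replicate 2 left out 0.63. It was at 21.4% and 24.1% of the density of Dgke in WT and at 28.5% and 31.1% in cKO.

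Wdr83os, a coding gene for a small protein of the endoplasmic reticulum, was at 2.18 and 2.49 CPM in WT and 4.63 and 3.37 CPM in cKO. It had a change of 0.77 on the log2 scale (SE 0.363, DESeq2 adjusted p 0.286), against 0.15 (SE 0.183) for Wdr83. Rsf1os2, a lncRNA that overlaps the histone chaperone gene Rsf1 over 91.8% of its length, was at 1.92 and 2.16 CPM in WT and 3.98 and 3.04 CPM in cKO. With 0.78 (SE 0.381, DESeq2 adjusted p 0.319) it had the largest log2 fold change of transcripts at that level, while Rsf1, at 346 to 379 CPM, had -0.02 (SE 0.077). The WT and cKO libraries of both transcripts were apart, from at most 178 fragments per library.

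Other transcripts with separate libraries spanned low and higher levels. Zbtb11os1, beside the zinc finger gene Zbtb11, was at 0.985 and 1.85 CPM in WT and 2.42 and 2.41 CPM in cKO, a change of 0.76 on the log2 scale (SE 0.48) that moved to 0.38 when WT replicate 1 was left out and to 1.298 when WT replicate 2 was. Tomm6os, beside a subunit gene of the mitochondrial import channel, was at 1.13 and 1.29 CPM in WT and 1.93 and 1.79 CPM in cKO (0.61, SE 0.496). Rab11fip4os1, inside the gene of a Rab11 effector, was at 1.03 and 0.924 CPM in WT and 1.56 and 1.33 CPM in cKO (0.56, SE 0.556). None of these had a DESeq2 adjusted p, and their SE are 0.48 or more. Slc6a19os, at 12.3 and 11.3 CPM in WT and 12.7 and 17.7 CPM in cKO, had 0.36 on the log2 scale (SE 0.205, DESeq2 adjusted p 0.442), which moved to 0.59 when cKO replicate 1 was left out and to 0.10 when cKO replicate 2 was.

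**Figure D4:**
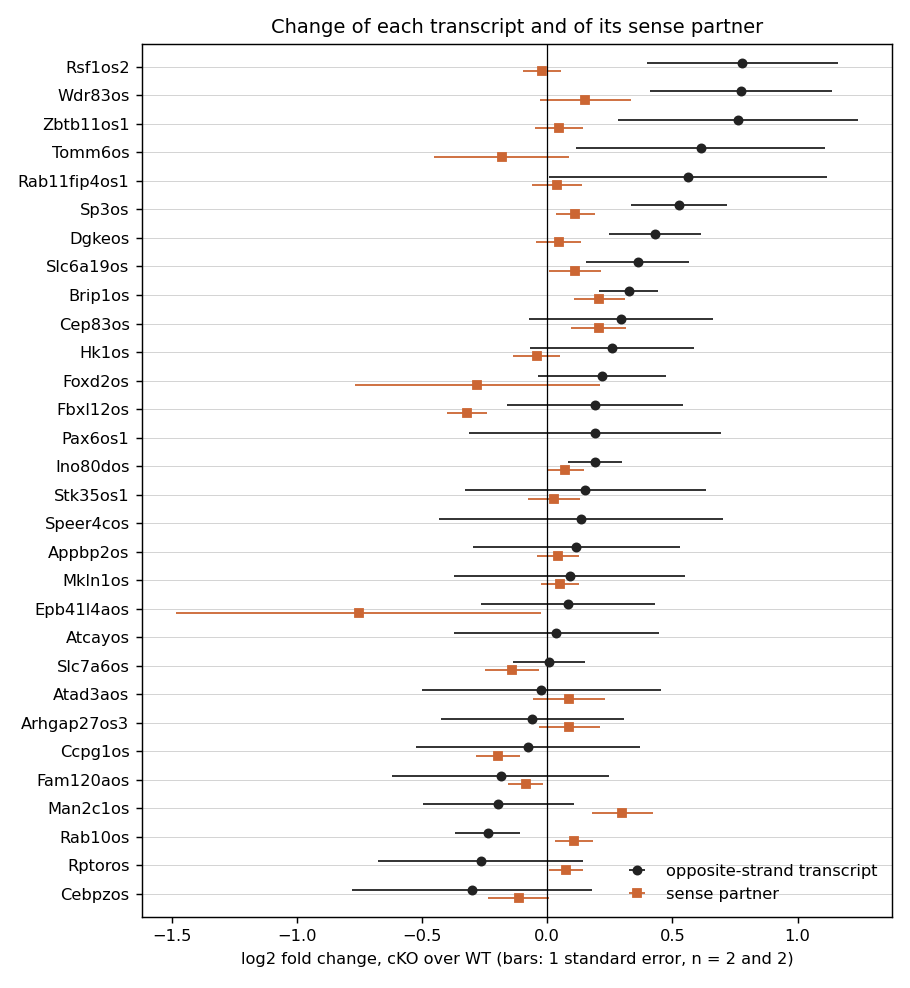
Log2 fold change (cKO over WT) of the 30 opposite-strand transcripts with at least 1 CPM (circles) and of their partners where these had at least 1 CPM (squares), with bars of 1 standard error, from 2 libraries a genotype. Transcripts are ordered by their change, from -0.30 for Cebpzos to 0.78 for Rsf1os2, and most partners lie nearer to 0 with shorter bars.

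Lower in both cKO libraries were 3 transcripts of that level. Rab10os, which runs into the end of the membrane traffic gene Rab10, was at 35.4 and 31.7 CPM in WT and at 29.1 and 27.9 CPM in cKO, a change of -0.24 on the log2 scale (SE 0.131, DESeq2 adjusted p 0.415). Rab10 lay the other way, at 221 and 218 CPM in WT and 238 and 236 CPM in cKO (0.11, SE 0.075), so that both genes of the pair had separate libraries in opposite directions. Rptoros, inside the mTORC1 subunit gene Rptor, was at 2.72 and 2.34 CPM in WT and 1.90 and 2.31 CPM in cKO. Cebpzos, a coding gene that overlaps the end of Cebpz, was at 2.02 and 1.66 CPM in WT and 1.38 and 1.61 CPM in cKO. The log2 fold changes of Rptoros and Cebpzos were -0.27 (SE 0.41) and -0.30 (SE 0.479), both within their SE. With a library left out that of Rptoros was -0.12 in the absence of cKO replicate 1 and -0.42 in that of cKO replicate 2, and that of Cebpzos was -0.17 in the absence of WT replicate 1 and -0.43 in that of WT replicate 2.

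Other transcripts of high level gave overlapping groups or small differences. Slc7a6os was at 28.0 and 27.6 CPM in WT and 30.8 and 25.2 CPM in cKO, with a log2 fold change of 0.01 (95% interval -0.28 to 0.29). Ino80dos had 0.19 (95% interval -0.02 to 0.40), and Ino80d 0.07. Foxd2os, beside a forkhead factor gene, was at 5.72 and 8.17 CPM in WT and 8.35 and 7.87 CPM in cKO, and Hk1os, inside the hexokinase gene Hk1, at 3.59 to 3.61 CPM in 3 libraries and at 5.05 CPM in cKO replicate 1. Man2c1os was at 5.75 and 5.03 CPM in WT and 3.85 and 5.56 CPM in cKO, and Epb41l4aos at 3.52 and 3.08 CPM in WT and 3.04 and 3.95 CPM in cKO. The median SE of the log2 fold change was 0.144 for the 7 transcripts of at least 10 CPM and 0.412 for the 23 below that.

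The 20 transcripts under 1 CPM were Mccc1os, Rbm3os, Myocos, Etaa1os, Ggnbp2os, Rab26os, Tspan2os, Arhgap20os, Pitpnm2os1, Phtf1os, Tmem150cos, Zfp85os, Ppifos, Bloc1s6os, Uckl1os, Nkx2-2os, Map2k3os, Hnf4aos, Acss2os and Smc2os. Their log2 fold changes ran from -1.99 to 1.57 with SE from 0.643 to 1.33, and none could be called by the criterion on level. Of these, 4 were higher in both cKO libraries than in both WT libraries and 3 lower, beside 24.9% and 24.0% of the genes above 1 CPM. Myocos, singled out after its values were seen, was at 0.61 and 0.37 CPM in WT and 1.70 and 1.18 CPM in cKO (1.57, SE 0.654), while no fragment was counted for Myoc, whose end it overlaps. Map2k3os was at 0.657 and 0.349 CPM in WT and 0.013 and 0.251 CPM in cKO (-1.99, SE 1.33). This change rested on 0.5 fragments in cKO replicate 1, being -0.99 without that library, -6.72 without cKO replicate 2 and -3.02 with the replicate block. Etaa1os was at 0.985 and 0.554 CPM in WT and 1.09 and 1.23 CPM in cKO, and Smc2os at 0.305 and 0.226 CPM in WT and 0.338 and 0.151 CPM in cKO.

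Of the partners, 2 of the 40 with a DESeq2 adjusted p were called, which is near the 4.06% of all genes. Phtf1 was at 75.8 and 74.9 CPM in WT and rose to 92.7 and 99.1 CPM in cKO, a difference of 0.35 on the log2 scale (SE 0.0943, DESeq2 adjusted p 0.0103, edgeR adjusted p 0.111). Its transcript Phtf1os, which starts 206 bp inside it on the other strand, was at 0.493 and 0.678 CPM in WT and 0.599 and 0.402 CPM in cKO, with overlapping groups. Fbxl12 fell from 224 and 241 CPM in WT to 185 and 188 CPM in cKO, a difference of -0.32 on the log2 scale (SE 0.0808, DESeq2 adjusted p 0.00391, edgeR adjusted p 0.114). Fbxl12os was at 2.65 and 3.49 CPM in WT and 3.67 and 3.37 CPM in cKO, with overlapping groups. Its change of 0.19 on the log2 scale (SE 0.351) was -0.00 when WT replicate 1 was left out and 0.41 when the other WT library was. With a library left out 1 group holds a single library, so only the log2 fold changes are given. That of Phtf1 was then 0.29 to 0.40 and that of Fbxl12 -0.38 to -0.26. The partners Smc2 and Pitpnm2, at 0.43 and 0.26 with all libraries, were at 0.71 and 0.38 without WT replicate 2 and at 0.19 and 0.14 without WT replicate 1. As for Brip1os above, the larger values set cKO against WT replicate 1 alone, the library high in Xist.

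Whether a transcript and its partner moved differently was tested on the log2 ratio of both within each library, with limma over 3371 pairs of genes on opposite strands. Of these pairs 0.653% passed an adjusted p of 0.05, and none of the 50 did. At an unadjusted p under 0.05 there were 7 of 50, which were Rsf1os2, Rab10os, Dgkeos, Sp3os, Wdr83os, Tomm6os and Man2c1os, against 13.1% of all pairs. The largest of these differences was that of Rsf1os2, 0.78 (SE 0.274, limma adjusted p 0.273). For Rab10os it was -0.34 (SE 0.124, limma adjusted p 0.283), and for Man2c1os -0.52 (SE 0.227, limma adjusted p 0.375). The log2 fold change of Man2c1os itself, -0.20, was 0.05 when cKO replicate 1 was left out and -0.49 when cKO replicate 2 was, and that of Man2c1, 0.30, was 0.37 and 0.23, so the difference of this pair depends on which cKO library is kept. In 28 of 50 pairs (56.0%) the ratios of the cKO libraries lay on one side of those of the WT libraries, 19 of them above and 9 below, against 44.1% of all pairs. The 6 pairs with a partner under 40 fragments entered this fit because the members were added to it whole, and their ratios rest on the prior count of 2.

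In the 26 pairs with at least 200 fragments in both genes, 15 moved in one direction, 12 both higher and 3 both lower. In 6 the transcript was higher and the partner lower, and in 5 the reverse. Same direction was thus seen in 57.7% of these pairs, and in 54.9% of 2528 other opposite-strand pairs of that depth. Across the 26 pairs Pearson's r of both log2 fold changes was 0.05 and Spearman's rho 0.05, as a description, since all pairs share the 4 libraries. Of the 11 transcripts whose cKO libraries were above the WT libraries, 4 had a partner of which the same held, beside 12 of the 42 partners with at least 1 CPM and 24.9% of all genes of that level.

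The genes of the machinery that removes or ends such transcripts were set beside these values. Of 21 genes of the nuclear RNA exosome and its adaptors, DESeq2 called none, none had an unadjusted p under 0.05, and none passed with edgeR or limma voom. Over all genes 4.06% were called and 13.5% had such a p, so a count of 0 calls in a list of this size is near the background. Their median log2 fold change was 0.04. Of 37 genes for early termination, among them the Integrator subunits and the PTW/PP1 genes other than Tox4, which was called, DESeq2 called none, 3 had an unadjusted p under 0.05, none passed with edgeR or limma voom, and the median was -0.01. Ppp1r10, the gene of PNUTS, was at 143 and 147 CPM in WT and 180 and 165 CPM in cKO (0.24, SE 0.0844, DESeq2 adjusted p 0.0794). The lists of 75 T cell regulators and 38 chromatin and repair genes held no partner of the 50. The latter list is not complete, and the partners Brip1, Ino80d and Rsf1, which have such roles, are not in it. Rows named for Bach2 and Dnmt3a were below the limit of 40.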

How the data were processed

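Reads were filtered by the authors (fastp 0.13.1) and aligned to GRCm38 (STAR 2.7.9a), and gene counts came from the STAR output, without spike-in scaling; the submitters' processing notes also name featureCounts 1.6.1. The deposited values are expected counts of fragments, 8.61% of them fractional, over whole genes with introns. The deposited gene length, another column, is in bp. Libraries were strand-specific and made after rRNA depletion per the study's methods, while the labels' extract protocol names poly(A) capture; the strand setting of the counting is not given in the sources used here. Labels put libraries in groups by title. Replicate libraries may share technical spread.

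Counts were rounded. Genotypes were compared over all genes with the DESeq2 Wald test (1.42.0, R 4.3.3), called at Benjamini-Hochberg adjusted p under 0.05, fold of at least 1.2 and mean CPM of at least 1. Pair ratios (edgeR 4.0.16 log2 CPM, prior count 2) were tested with limma 3.58.1 over pairs overlapping or within 5000 bp. Alternatives were edgeR quasi-likelihood, limma voom, TMM factors, other filters, a replicate block and leaving out each library. Procedures were tested on simulated data. Python 3.11.15, pandas 2.3.3, numpy 2.4.6 and matplotlib 3.10.9 were used. Depth limits the precision: fragments without molecular identifiers are not independent, so errors cover these libraries only.

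Members and gene lists were chosen with earlier results of these data known. Named were Tox4, called genes, the 10 transcripts of highest level and 5 of highest density, the 5 largest changes each way with separate libraries and at least 200 fragments, the 3 highest and lowest ratios, 2 each side of the limit of 40, and their partners; Atcayos, Etaa1os, Myocos, Pitpnm2, the gene beside a start and Ppp1r10 were added after values were seen.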

Additional observations from a re-analysis of the deposited data

How the results depend on the processing

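None of the 50 transcripts was called increased or decreased under any alternative, except 1 increased (Brip1os) without WT replicate 2, so that leaving out a library gave 0 to 1. Of the partners, 1 was called increased and 1 decreased, and both counts were 0 with edgeR, limma voom and the replicate block (DESeq2 and edgeR). The replicate numbers did not pair the libraries (correlation of deviations -0.01), and no ratio of the 50 pairs passed with or without the block. Over all 3371 pairs, 22 passed without it and 1 with it. The median log2 fold change of the transcripts, 0.13, was 0.19 at 200 or more fragments and 0.0607 to 0.165 with a library left out. That of the partners, -0.00, was 0.0328 with edgeR, 0.0451 at 200 or more fragments and -0.0576 to 0.0253 with a library left out. The median difference of both, 0.12, was 0.118 to 0.127 under other tools, filters and the block, and 0.131 to 0.201 with a library left out. The median log2 density ratio, -2.50, was -4.86 without division by length, -1.84 at 200 or more fragments and -2.58 to -2.42 with a library left out. Tox4 kept its direction but not its call with edgeR (-0.31), limma voom (-0.31) and the replicate block (-0.31). With a library left out its log2 fold change was -0.34 to -0.28. The cause of these shifts was not tested. Depth limits the 20 transcripts under 1 CPM, and 9 of 30 above it had no adjusted p.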
